A study of Mus musculus with 57 samples.

Results

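Expression of the histone acetyltransferases Kat6a, Kat2a, Kat2b, Kat5, Kat7, Kat8, Crebbp, Ep300, Ncoa1 and Hat1 was examined in 3 brain regions. Every probeset annotated to these 10 symbols was taken. Of the 10 genes, 7 had a probeset, giving 12 probesets among the 22626 on the array and 7 genes among 12393 in the series. No probeset annotated to Kat5, Kat8 or Ep300 was found, and these are not analysed here. All 12 probesets reached a log2 value of 4.5 on at least 1 array and were tested with 19815 probesets in all.

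Arrays came from individual male C57Bl/6NCrl mice, an inbred strain. All mice had free choice between water and 10% (w/v) ethanol in 16 sessions of 18 h, and tissue was taken 6 days after the last session. With 19 arrays each, the groups were the prefrontal cortex (PFC), the nucleus accumbens of the striatum (NAc) and the VMB, the midbrain piece titled VTA in the labels. There is no group without ethanol access, so the comparisons below are between regions, and the relation to ethanol intake was not analysed here. PFC replicate 20 carries a PFC title but other labels that name the ventral tegmental area. It was kept as PFC, and its mean correlation was 0.995 with the PFC arrays and 0.955 with the VMB arrays.

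Histone acetyltransferases move an acetyl group onto lysines of histone tails, which loosens chromatin and makes binding sites for bromodomain proteins. Kat6a (MOZ) and Kat7 (HBO1) are MYST family enzymes that work in complexes with BRPF and JADE scaffolds. Kat2a (GCN5) and Kat2b (PCAF) are paralogs that act as alternative catalytic subunits of the SAGA and ATAC coactivator complexes. Crebbp (CBP) is the coactivator of the cAMP-responsive factor CREB and is known for its part in neuronal activity-dependent transcription. Ncoa1 (SRC-1) is a nuclear receptor coactivator, and Hat1 acetylates newly made histone H4 before it is deposited on DNA.

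The promoters of the paralogs Kat2a and Kat2b are shown because Kat2b 1434037_s_at was called higher in VMB than in PFC while Kat2a 1422972_s_at was called lower. Each sequence runs 5′ to 3′ on the gene's strand, from 250 bases before to 50 bases after a RefSeq start site (GRCm38.p6), 300 bases in all. Capitals mark TGACG, the core of the cAMP response element, searched as TGACG and as its reverse complement CGTCA.
Kat2a, chr11:100712418-100712717, minus strand: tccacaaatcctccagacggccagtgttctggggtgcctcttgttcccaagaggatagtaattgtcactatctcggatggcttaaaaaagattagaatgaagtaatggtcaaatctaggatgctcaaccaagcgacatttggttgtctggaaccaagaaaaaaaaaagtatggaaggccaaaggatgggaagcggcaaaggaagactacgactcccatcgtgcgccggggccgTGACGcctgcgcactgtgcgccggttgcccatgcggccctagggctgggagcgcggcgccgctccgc
Kat2b, chr17:53566721-53567020, plus strand: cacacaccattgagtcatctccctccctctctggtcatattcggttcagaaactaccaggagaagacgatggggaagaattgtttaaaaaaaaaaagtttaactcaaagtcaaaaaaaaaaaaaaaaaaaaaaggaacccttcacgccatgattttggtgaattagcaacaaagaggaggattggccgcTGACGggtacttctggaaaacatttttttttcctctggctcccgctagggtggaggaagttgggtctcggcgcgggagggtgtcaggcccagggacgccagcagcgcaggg
Each held 1 match, and 20.8% of 32851 RefSeq promoters of this length held at least 1. The full palindrome TGACGTCA was in neither, against 1.79% of all promoters. The Kat2a promoter was 54.3% G and C with 19 CpG, and the Kat2b promoter was 47% with 11 CpG, against medians of 52.7% and 7. A further Kat2b start site, at chr17:53583876-53584175, had no match. The Crebbp and Ncoa1 promoters were richer in G and C, at 82% and 84.7%. A match is a description of letters and not of a bound site.

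Each region had the highest level of its own marker gene. The dopamine receptor Drd2 averaged 8.17 ± 0.24 (SD, n = 19) in NAc, 5.80 ± 0.25 in VMB and 4.37 ± 0.11 in PFC. The cortical transcription factor Tbr1 averaged 8.11 ± 0.21 in PFC, 6.13 ± 0.29 in NAc and 3.13 ± 0.12 in VMB. The dopamine transporter Slc6a3 averaged 9.24 ± 0.23 in VMB, 4.36 ± 0.13 in NAc and 4.28 ± 0.12 in PFC. Some cortical markers were thus measured in NAc too, where Neurod6 and Fezf2 exceeded VMB by 2.38 and 1.46. The cortical markers Cux2 and Rorb went the other way, with NAc minus VMB of -0.36 and -0.55, neither called. The dopamine neuron marker Nr4a2 was higher in NAc than in VMB by 1.54. The part of neighbouring tissue in the regional differences was not tested. On the deposited scale the median of an array was 5.66 to 5.70 for PFC, 5.79 to 5.86 for VMB and 6.26 to 6.32 for NAc, so regions seem to have been normalized separately. Levels below are log2 values after quantile normalization over all 57 arrays, and the choice of scale changes several comparisons. NAc replicates 1, 6 and 19 and PFC replicate 3 stood apart from the other arrays of their region. The samples are whole tissue, so fewer cells of a type and less RNA per cell cannot be told apart.

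Kat2b had the clearest regional pattern of the 7 genes. Probeset 1434037_s_at ranged from 6.41 to 6.85 in PFC (median 6.74), from 7.16 to 7.94 in NAc (median 7.72), and from 8.20 to 9.0 in VMB (median 8.60). The 3 ranges did not overlap. VMB was higher than PFC by 1.84 ± 0.06 (SE) on the log2 scale, or 3.58-fold (limma, adjusted p = 1.25e-29, minimum difference 0.5). NAc was higher than PFC by 0.91 ± 0.06 (limma, adjusted p = 1.61e-08). NAc was lower than VMB, with a difference of -0.93 ± 0.06 (limma, adjusted p = 4.31e-09), but on the deposited scale this difference was -0.32 and was not called. The suffix of this probeset marks probes that can match more than 1 transcript, so its gene assignment is less certain. The second Kat2b probeset, 1450821_at, lay near the detection filter and spanned 4.21 to 4.51 for PFC, 4.44 to 4.87 for NAc, and 4.68 to 5.84 for VMB. No PFC array reached the filter of 4.5 on the deposited values. It entered the test through NAc and VMB alone, and although its VMB minus PFC contrast is among the calls counted below, its sizes against PFC are set against a group at background and are not used as support for Kat2b. NAc minus VMB was -0.63 and was not called.

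**Figure D1:**
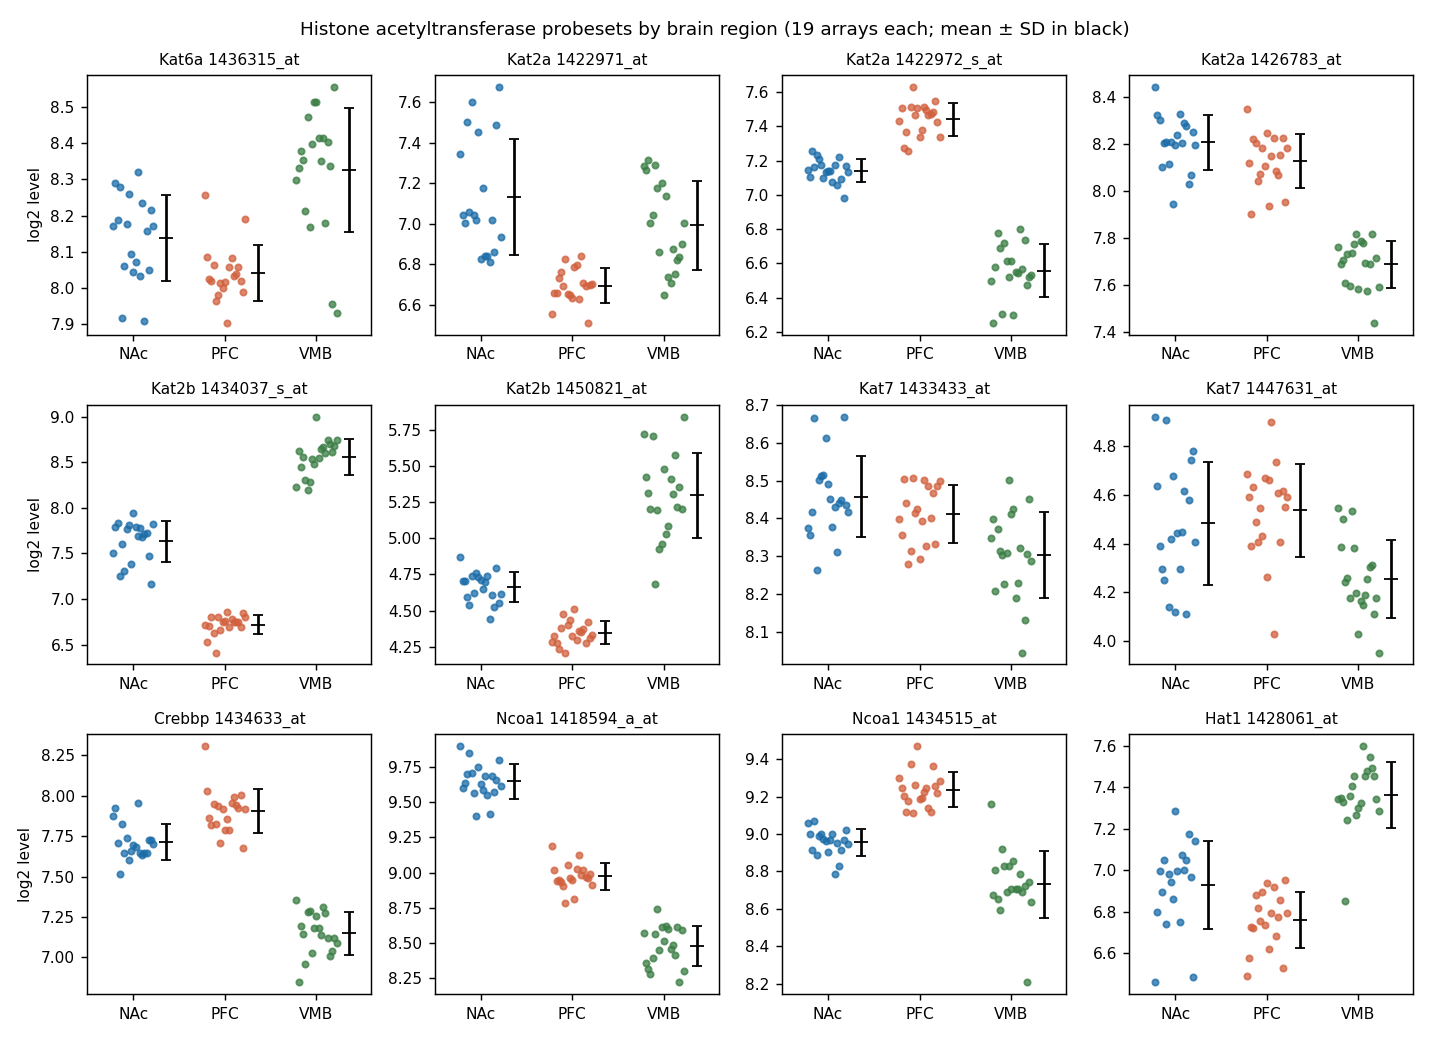
Log2 level after quantile normalization (y axis) of the 12 probesets in NAc, PFC and VMB (x axis). Each point is 1 of 19 arrays per region and black bars are mean ± SD. Kat2b 1434037_s_at has 3 ranges that do not overlap, and Kat6a has ranges that overlap in every pair of regions. Scales differ between panels, and levels of different probesets are not comparable.

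Kat2a, the paralog of Kat2b, did not give the same answer from its 3 probesets. Probeset 1422972_s_at ranged from 7.25 to 7.63 in PFC (median 7.47), from 6.98 to 7.25 in NAc (median 7.14) and from 6.25 to 6.80 in VMB (median 6.55). Every VMB array lay below every PFC and every NAc array. VMB was below PFC by a difference of -0.88 ± 0.04 (limma, adjusted p = 6.42e-14). Probeset 1426783_at gave -0.44 ± 0.04 for the same contrast, with ranges that did not overlap, and was not called at the minimum difference. Probeset 1422971_at gave a difference in the other direction, 0.30 ± 0.07, also not called. At the minimum difference the Kat2a call rests on 1 probeset of 3, and that probeset has the same suffix for probes that can match more than 1 transcript. Against a difference of 0, 1426783_at was also lower in VMB than in PFC (limma, adjusted p = 1.82e-16). NAc minus VMB was 0.58 for 1422972_s_at, 0.52 for 1426783_at and 0.14 for 1422971_at, none called. After median centring the first 2 of these were called (0.65 each), and on the deposited values all 3 were.

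Crebbp, measured by 1434633_at, was lowest in VMB. It ranged from 6.85 to 7.36 in VMB (median 7.14), from 7.51 to 7.96 in NAc (median 7.69) and from 7.68 to 8.31 in PFC (median 7.92). The VMB range lay below both others. VMB minus PFC was -0.76 ± 0.04 (limma, adjusted p = 3.47e-07). NAc minus VMB was 0.56 ± 0.04 and was not called (limma, adjusted p = 0.262), though it was called after centring arrays on their medians (0.67). NAc minus PFC was -0.19 and turned positive, 0.47, on the deposited scale.

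Ncoa1 was highest in NAc by 1 probeset. Probeset 1418594_a_at ranged from 9.40 to 9.90 in NAc (median 9.64), from 8.79 to 9.19 in PFC (median 8.96) and from 8.22 to 8.74 in VMB (median 8.48). The 3 ranges did not overlap. NAc was higher than VMB by 1.17 ± 0.04, or 2.25-fold (limma, adjusted p = 1.36e-22), and higher than PFC by 0.68 ± 0.04 (limma, adjusted p = 2.44e-04). Probeset 1434515_at gave the opposite sign for NAc minus PFC, -0.28 ± 0.04, and was not called in any contrast after quantile normalization. For VMB minus PFC both probesets gave similar differences on that scale, -0.49 and -0.50, neither called. After median centring 1434515_at was called for VMB minus PFC (-0.63). On the deposited values it was called for NAc minus VMB (0.86), where the median of all genes was 0.55.

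Kat6a was not called in any contrast after quantile normalization. Probeset 1436315_at ranged from 7.90 to 8.26 in PFC (median 8.02), from 7.91 to 8.32 in NAc (median 8.17) and from 7.93 to 8.55 in VMB (median 8.35). The 3 ranges overlapped. VMB minus PFC was 0.28 (95% interval 0.20 to 0.37), which is below the minimum difference of 0.5. Against a difference of 0 it passed (limma, adjusted p = 2.09e-08). NAc minus PFC was 0.10, but 0.76 on the deposited scale, where it was called (limma, adjusted p = 1.48e-07) and the median of all genes was 0.74. NAc minus VMB was -0.19 and turned to 0.42 on the deposited scale.

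Hat1 and Kat7 were not called in any contrast after quantile normalization. On the deposited values Hat1 was called for NAc minus PFC (0.80). There Kat7 1433433_at was called for NAc minus PFC (0.71) and NAc minus VMB (0.76). The medians of all genes on that scale were 0.74 and 0.55 in these 2 contrasts. Hat1 spanned 6.49 to 6.95 for PFC, 6.46 to 7.28 for NAc, and 6.85 to 7.60 for VMB, and VMB minus PFC was 0.60 ± 0.05 (limma, adjusted p = 0.165). Kat7 1433433_at lay between 8.05 and 8.67 on all arrays, with differences from -0.11 to 0.15. Kat7 1447631_at lay between 3.95 and 4.92, near the detection filter.

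Over the 12 probesets, 2 were called for NAc minus PFC, 4 for VMB minus PFC and 2 for NAc minus VMB. Among all tested probesets 15.1%, 19.1% and 19.6% were called in these contrasts. For VMB minus PFC the 4 are 33.3% of the 12, and 3 remain without Kat2b 1450821_at. The replicate number as a block gave the same counts. Against a difference of 0, 8, 12 and 11 of the 12 were called, beside 72.5%, 72.8% and 74.7% of all probesets. On the deposited values the counts were 8, 4 and 7 beside 58.7%, 21.5% and 43.5%, and on median centred values 2, 5 and 5 beside 16.0%, 19.5% and 19.9%. With 1 probeset per gene, 2 of 7 genes were called in each contrast, beside 14.2%, 19.7% and 19.8% of 11342 genes. The median difference of the 7 genes was 0.10, -0.11 and 0.15, and that of all 11342 genes was 0.06, 0.04 and 0.02. On the deposited values the medians of all genes were 0.74, 0.19 and 0.55, and those of the 7 genes 0.76, -0.05 and 0.76.

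**Figure D2:**
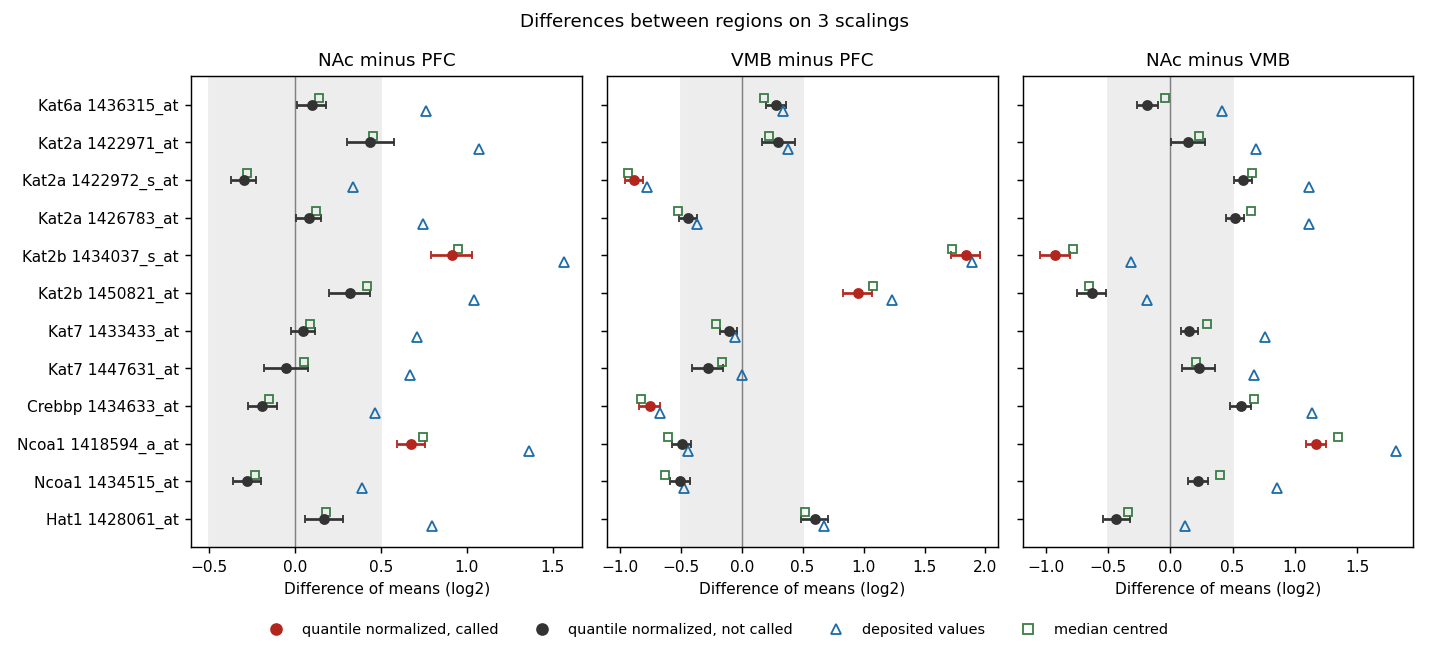
Difference of region means on the log2 scale (x axis) for the 12 probesets (y axis) in the 3 contrasts. Filled circles are quantile normalized values with 95% intervals, red where called, triangles are deposited values and squares are median centred values. The grey band is the minimum difference of 0.5. Kat2b 1434037_s_at reaches 1.84 for VMB minus PFC, and the deposited values lie to the right in both contrasts with NAc.

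The level of 7 oligodendrocyte marker genes, such as the myelin genes, followed the same order of regions as Kat2b. It averaged 8.29 ± 0.39 (SD, n = 19) in PFC (7.77 to 9.15), 10.1 ± 0.09 in NAc (9.98 to 10.3) and 11.1 ± 0.09 in VMB (10.8 to 11.1). All 7 markers were called higher in NAc and in VMB than in PFC, and 5 were called lower in NAc than in VMB. The mean level of 6 dopamine neuron markers had the same order, with 5.12 ± 0.07 in PFC, 6.21 ± 0.08 in NAc and 8.02 ± 0.11 in VMB. Not every dopamine marker followed it. Of the 6, 3 were called higher in NAc than in PFC and 5 in VMB than in PFC. Between NAc and VMB, 4 were called lower in NAc and Nr4a2 higher. Within regions, r between Kat2b and the oligodendrocyte marker level was 0.35 in NAc, 0.37 in PFC and -0.08 in VMB (permutation adjusted p = 0.340, 0.340 and 0.733). Of 21 such relations over 7 genes and 3 regions, 0 passed at adjusted p under 0.05 by r or by rho, and 3 had an unadjusted p under 0.05 by r (Crebbp in NAc and VMB, Ncoa1 in PFC). On the deposited values 2 passed, both in NAc: Kat2b (r = 0.65, permutation adjusted p = 0.0266) and Crebbp (r = 0.69, permutation adjusted p = 0.0241). Whether Kat2b varied with these markers among mice in NAc thus depended on the scale. The part of cell makeup in the Kat2b difference was not tested. This relation was added after the data were seen.

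**Figure D3:**
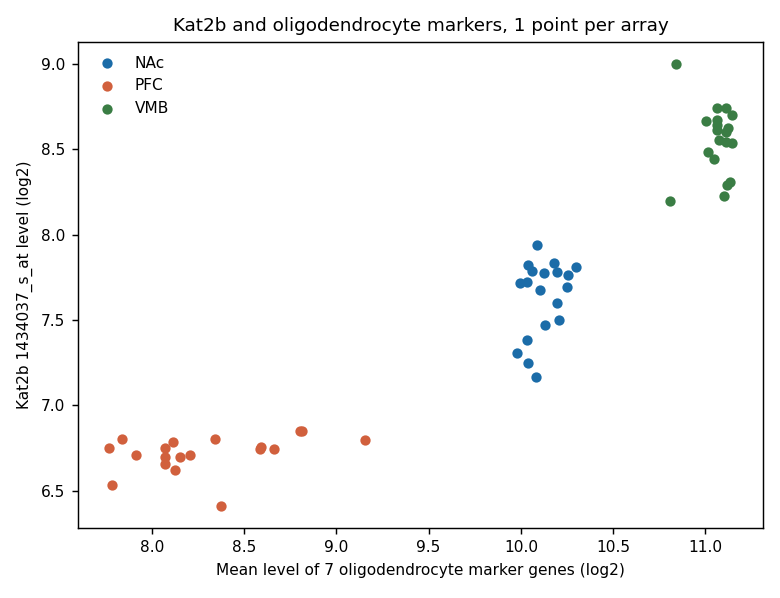
Level of Kat2b 1434037_s_at (y axis, log2) against the mean level of 7 oligodendrocyte marker genes (x axis, log2), 1 point per array and 19 per region. The regions form 3 separate clusters, so no correlation over all arrays is given.

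Members were then compared over the 19 mice of each region, with 1 probeset per gene, the one with the highest mean. Of 63 pairs of members and regions, 7 passed by Pearson's r (permutation test, 100000 permutations, adjusted p under 0.05) and 0 by Spearman's rho, with 15 and 11 at unadjusted p under 0.05. In PFC, Kat6a rose with Kat2a (r = 0.65, rho = 0.52, permutation adjusted p = 0.0433), Crebbp (r = 0.65, rho = 0.56, permutation adjusted p = 0.0466) and Ncoa1 (r = 0.64, rho = 0.50, permutation adjusted p = 0.0466). Crebbp and Hat1 were inversely related in PFC (r = -0.70, rho = -0.56, permutation adjusted p = 0.0283). In NAc, Kat2b rose with Hat1 (r = 0.66, rho = 0.59, permutation adjusted p = 0.0433) and Kat2a was inverse to Kat7 (r = -0.68, rho = -0.67, permutation adjusted p = 0.0433). In VMB, Kat2a rose with Ncoa1 (r = 0.62, rho = 0.66, permutation adjusted p = 0.0466). By region the passing pairs were 2 of 21 in NAc, 4 of 21 in PFC and 1 of 21 in VMB.

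Whether these pairs passed depended on which arrays were included. When each of the 57 arrays was left out in turn, between 0 and 8 pairs passed. PFC replicate 1 held the highest PFC value of Kat6a, Kat2a, Crebbp and Ncoa1 and the lowest of Hat1, and without it none of the 7 pairs passed, those of NAc and VMB through the adjustment alone. Without it, r fell to 0.51 for Kat6a with Kat2a, 0.34 with Crebbp and 0.43 with Ncoa1, and was -0.58 for Crebbp with Hat1. With each array of a pair's own region left out, Kat2a with Kat7 in NAc kept r between -0.76 and -0.62 and passed in 16 of 19 cases. Crebbp with Hat1 passed in 18 of 19 and Kat2b with Hat1 in 16. The Kat6a pairs in PFC passed less often, with Kat2a in 8 of 19, with Ncoa1 in 4 and with Crebbp in 3. Kat2a with Ncoa1 in VMB passed in 8 of 19. Without NAc replicate 19, Kat2b with Hat1 had r = 0.54, and without VMB replicate 17, Kat2a with Ncoa1 had r = 0.49. With the 2 mice lying farthest from the first gene's median removed, Kat6a with Crebbp had r = 0.39, and the other 6 pairs had sizes of r between 0.49 and 0.73. Without the arrays that stood apart 2 pairs passed. Among all pairs of genes on the array, 8.15% in NAc, 0.808% in PFC and 4.64% in VMB had an r at least as large in size as the weakest passing pair of that region. The 2 of 21 member pairs in NAc and 1 of 21 in VMB are near these shares, so they are not particular to the members. In PFC 4 of 21 passed beside 0.808%, but none of them passed without PFC replicate 1. The size of r used was set by the passing pairs themselves, so the shares are descriptive.

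**Figure D4:**
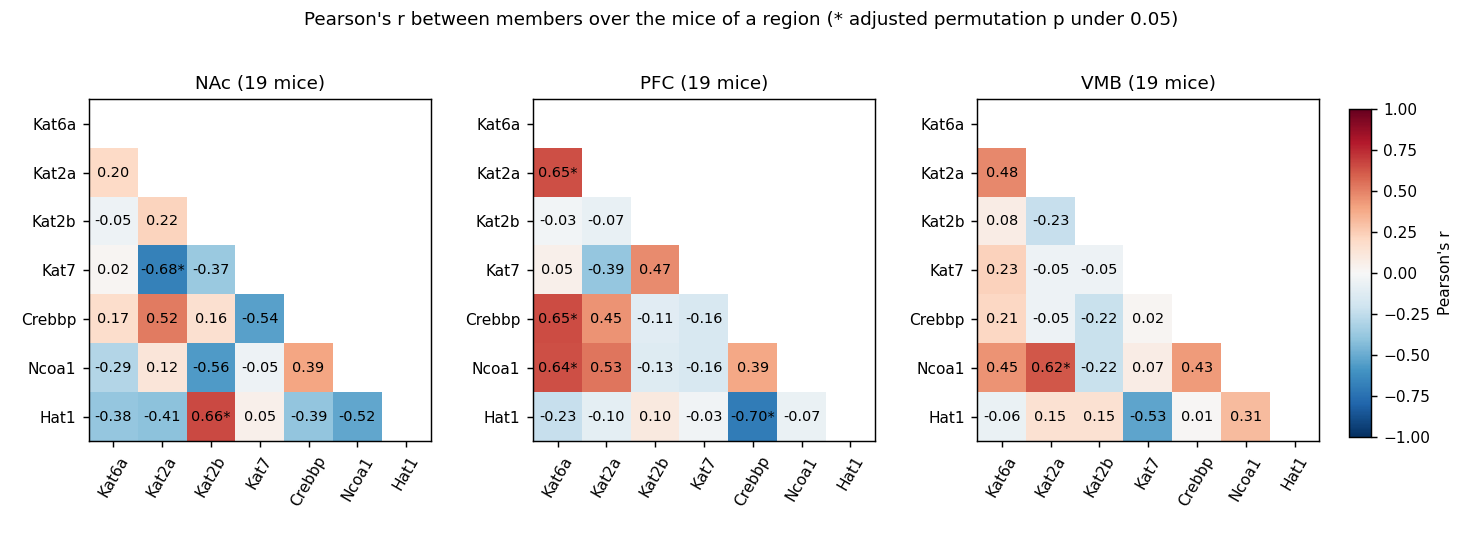
Pearson's r (colour and number) between the 7 genes over 19 mice in each region, with genes on both axes. Asterisks mark the 7 pairs with an adjusted permutation p under 0.05, 4 of them in PFC.

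The same gene was also compared between regions of mice with the same number, a pairing that was not verified. Of 21 relations over 18 mice each, 0 passed by r or rho (permutation test, lowest adjusted p = 0.395). Unadjusted, 2 had p under 0.05 by r, Kat7 between NAc and VMB (r = 0.52, rho = 0.35, permutation p = 0.0258) and Ncoa1 between NAc and PFC (r = 0.48, rho = 0.36, permutation p = 0.0426). The Ncoa1 value fell to 0.02 without the 2 farthest mice. Probesets of the same gene also varied mostly apart from each other. Of 18 relations between probesets of 1 gene within a region, 1 passed, the Ncoa1 pair in VMB (r = 0.63, rho = 0.74, permutation adjusted p = 0.0396), and 0 passed on the deposited values (permutation adjusted p = 0.0504 for that pair).

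By within-region centred values over 57 arrays, the genes most like Kat6a were Tbl1x (r = 0.67), Dpp8 (0.67), Rprd1a (0.59), Alg2 (0.58) and Ctdsp2 (0.57). Within regions these differed, with Ctdsp2 at 0.04 in NAc and 0.80 in VMB, Rprd1a at 0.30 in NAc and Dpp8 at 0.31 in PFC. Values of r over 11341 genes had a median of 0.07. Of the other 6 genes, Kat2a was closest to Kat6a (r = 0.39) and Hat1 farthest (-0.21). The points share arrays and normalization, so these values are descriptive.

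Partners of these enzymes were read from lists of complex subunits, with 1 probeset per gene. Among all 11342 genes 14.2%, 19.7% and 19.8% were called in the 3 contrasts. Of 4 measured subunits of the MOZ, MORF and HBO1 complexes, 0 were called in any contrast (limma), and 3, 2 and 4 were at adjusted p under 0.01 for NAc minus PFC, VMB minus PFC and NAc minus VMB against a difference of 0, which 72.5%, 72.8% and 74.7% of all probesets passed. Of 18 SAGA and ATAC subunits, the deubiquitinase Usp22 was lower in NAc than in PFC (-1.03 ± 0.09) and VMB (-1.29 ± 0.09), and Eny2 was lower in VMB than in PFC (-0.80 ± 0.05). Dr1 was lower in NAc than in PFC (-0.88 ± 0.07) and Wdr5 higher in NAc than in VMB (0.75 ± 0.04), and the other 14 subunits were not called. Of 12 TIP60 complex subunits, Mbtd1 was higher in NAc than in PFC (1.07 ± 0.06) and VMB (1.22 ± 0.06). The scaffold Trrap was lower in VMB than in PFC (-0.77 ± 0.05) and NAc (1.03 ± 0.05 for NAc minus VMB). Actl6a was higher in NAc than in PFC (0.84 ± 0.07) and VMB (0.72 ± 0.07).

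Of 9 MSL and NSL subunits, which work with Kat8, Msl1 and Mcrs1 were lower in VMB than in PFC (-0.71 ± 0.03 and -0.74 ± 0.04) and than in NAc, and Msl2 was higher in VMB than in NAc. Of 6 partners of CBP and p300, 5 were called for VMB minus PFC, beside 19.7% of all genes. Cited1 (1.33 ± 0.05) and Cited2 (0.85 ± 0.07) were higher in VMB, and Cited4 (-1.55 ± 0.07), Crtc2 (-0.77 ± 0.05) and Crtc3 (-0.71 ± 0.06) were lower. Cited proteins bind CBP and p300, and Crtc proteins are CREB coactivators. Between NAc and VMB, Cited1 and Cited2 were lower in NAc and Cited4 higher. Crtc3 was also lower in NAc than in PFC (-0.84 ± 0.06). The 27 calls in these lists kept their direction on the other scales, but on the deposited values 6 differences fell below the minimum in size. These were Crtc3 (-0.15), Dr1 (-0.24) and Usp22 (-0.40) for NAc minus PFC, Cited2 (-0.13) and Msl2 (-0.42) for NAc minus VMB, and Crtc3 (-0.46) for VMB minus PFC. Of 6 other acetyltransferases, Kat6b, the paralog of Kat6a, was lower in VMB than in PFC (-0.92 ± 0.05) and than in NAc (0.79 ± 0.05 for NAc minus VMB).

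**Figure D5:**
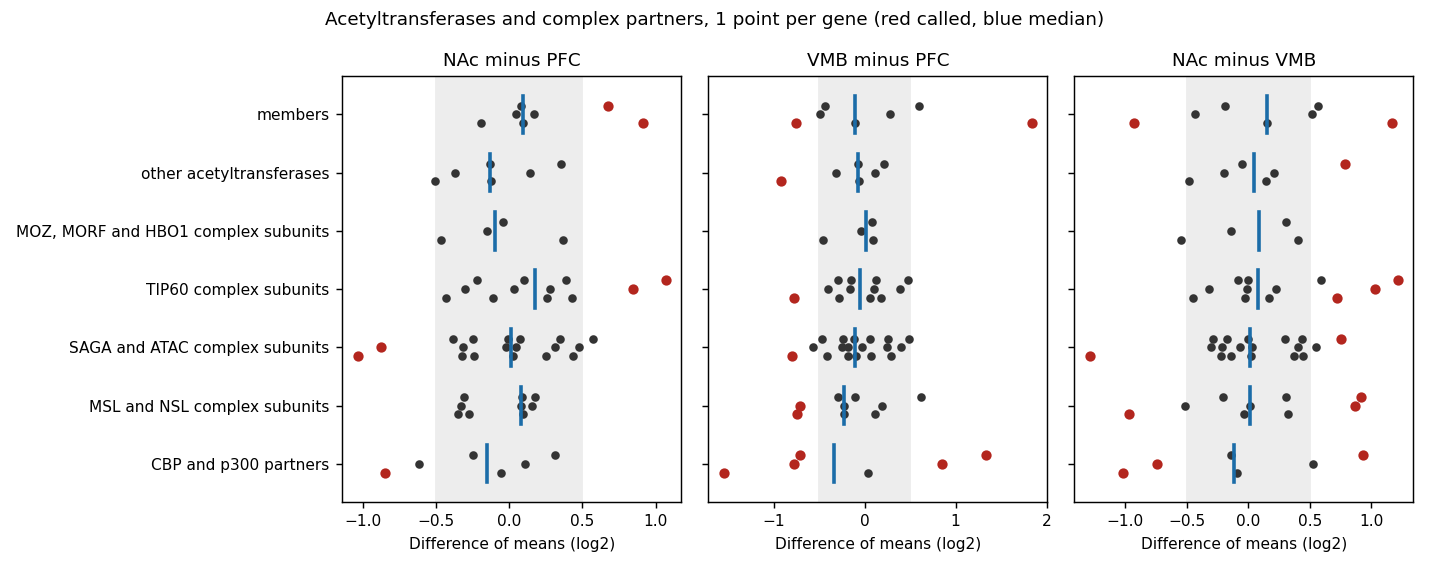
Difference of region means on the log2 scale (x axis) for the 7 genes and for lists of related genes (y axis), 1 point per gene. Red points were called, blue bars are list medians and the grey band is the minimum difference of 0.5. Among the 6 partners of CBP and p300, 5 were called for VMB minus PFC, in both directions. The mean level of these 6 was not far above the detection filter.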

How the data were processed

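The deposited values are log2 RMA signals of an Affymetrix mouse oligonucleotide array, made by the authors from arrays that passed their quality control. Per the labels the processing tools were GCOS and RMA, without versions. Of 22626 probesets, 20380 carry 1 gene symbol, 691 several and 1555 none. Genes are named from 1 symbol only.

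Values were quantile normalized over 57 arrays and fitted with limma 3.58.1 in R 4.3.3, with region as the only factor. Differences were tested with treat at a minimum of 0.5, Benjamini-Hochberg adjusted over 19815 probesets that reached 4.5 on at least 1 array, and called at adjusted p under 0.01. On simulated data the fit of VMB minus PFC over 19815 probesets recovered 97% of differences of 1. The simulated differences were 1 and 1.5, so recovery of differences nearer the minimum of 0.5 is not known. Correlations used permutation tests, adjusted within each family. The number of arrays limits the precision.

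The replicate number was taken as the mouse. Deviations of same-numbered arrays correlated at 0.06 (NAc and PFC), 0.08 (NAc and VMB) and 0.01 (PFC and VMB) on average. Arrays with other numbers gave means of -0.004, 0.002 and -0.001. For NAc and VMB the same-numbered values ran from -0.49 to 0.59. The pairing by mouse was thus not verified. Members and lists were chosen with earlier results of these data known. The text names every member, the called genes of each complex list, the region markers Drd2, Slc6a3 and Tbr1, and the 5 genes most like Kat6a. The cell type markers Neurod6, Fezf2, Cux2, Rorb and Nr4a2 are named in addition.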

Additional observations from a re-analysis of the deposited data

How the results depend on the processing

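The counts of called member probesets (2 for NAc minus PFC, 4 for VMB minus PFC, 2 for NAc minus VMB) were unchanged with no filter, array weights, PFC replicate 20 left out, the arrays that stood apart left out, and the replicate block as a random or a fixed term (2, 4 and 2 under each replicate block, and with 1 probeset per gene 3 genes called, as without it). With a mean of 6 or more they were 2, 3 and 2. The deposited values gave 8, 4 and 7, and, with 1 probeset per gene, 7 genes called in place of 3. Median centring gave 5 for NAc minus VMB. No minimum difference gave 8, 12 and 11, and 7 genes, and a minimum difference of 1 gave 0, 1 and 1. With 1 probeset per gene VMB minus PFC gave 2.

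On the deposited values Kat6a NAc minus VMB (0.42), Kat2a 1422972_s_at NAc minus PFC (0.34), Kat7 1447631_at NAc minus PFC (0.67), Crebbp NAc minus PFC (0.47), Ncoa1 1434515_at NAc minus PFC (0.39) and Hat1 NAc minus VMB (0.12) turned positive, as did Kat7 1447631_at NAc minus PFC after median centring (0.051). On the deposited scale the median of all genes lies toward NAc, at 0.74 for NAc minus PFC and 0.55 for NAc minus VMB.

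Of the relations between members, 7 passed, against 0 by rho, 2 with the first principal component removed, 2 without the arrays that stood apart and 0 to 8 with each array left out in turn. On the deposited values 7 passed, 5 of them shared. Kat2b with Hat1 in NAc turned to r = -0.104 with the first component removed, which held 47.0% of the variance in NAc. The causes were not tested. Leaving out single arrays, the arrays that stood apart, and the relations to oligodendrocyte markers and between probesets were chosen after seeing the data.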
